A study of Mus musculus with 4 samples.

Results

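The CREM, CREB and CRTC family was followed through 9 genes, which are Crem, Creb1, Atf1, Atf2, Crtc1, Crtc2, Crtc3, Sik1 and Sik2. Every array probe whose deposited gene name is one of these was taken, whatever its value, which gave 22 of the 55681 non-control probes and 9 of the 22328 named genes. Pancreatic islets were picked by hand from C57BL/6 mice aged 24 weeks, and their RNA was hybridised to 4 one-colour Agilent arrays. The groups are wild-type males (male WT), diabetic transgenic males (male Tg), females carrying the transgene (female Tg), and transgenic males that had carried an estradiol (E2) implant for 6 weeks (male Tg E2). The 3 Tg groups carry the same label, but the name, promoter and target cell of the transgene are not given in the labels used here, and the number of mice behind each array is not given either. There is 1 array per group, so each comparison is between single arrays, no test across animals is possible and no p-value is given.

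CREM, CREB and ATF1 are closely related leucine zipper proteins that bind the cAMP response element (CRE) in DNA. When cAMP rises in a cell, protein kinase A phosphorylates these factors, which then draw the coactivators CBP and p300 to their target genes. The CRTC proteins are a second set of coactivators. SIK kinases hold them in the cytoplasm by phosphorylation, while cAMP and calcium release them into the nucleus. In beta cells this system relays incretin and glucose signals and helps to sustain insulin gene expression and survival. The Crem gene also makes a short repressor, ICER, from an internal promoter, and Sik1 is itself induced by CREB.

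Levels below are log2 of the processed intensity minus the array's own 75th percentile over non-control probes, so 0 is that percentile. The level of one probe cannot be set against that of another, and values are compared only between arrays. The standard error (SE) of a difference comes from the scanner software's error model, which covers measurement on the array and not the spread between mice. A probe counts as measured where the scanner software called it well above background on both arrays compared, and as higher or lower from a 2-fold difference, that is 1 on the log2 scale. Of the 22 probes, 16 were well above background on all 4 arrays, 4 on some arrays only and 2 on none. All 9 genes have at least 1 probe among those 16, and no spot was saturated. Probes of a gene are numbered by their start on the transcript named in the files.

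Each probe is a 60-base DNA oligonucleotide. Printed here are 3 probes from inside a transcript, because each reads its gene upstream of the probe at the 3′ end and 2 of them carry the largest differences of Atf2 and Crtc2 described below. Each is open, with no stop codon, in 1 reading frame, and positions are those of the file headers on mouse build mm9. Without that build's genome, exon and untranslated region were not assigned. The Atf2 sequence lies at chr2:73684290-73684349 on the minus strand. The Crtc2 sequence lies at chr3:90066577-90066636 on the plus strand. The Sik2 sequence spans 60090 bases of genome at chr9:50743671-50803760 on the minus strand, so it joins sequence from both sides of an intron.
Atf2 probe 1: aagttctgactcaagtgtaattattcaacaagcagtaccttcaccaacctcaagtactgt
Crtc2 probe 1: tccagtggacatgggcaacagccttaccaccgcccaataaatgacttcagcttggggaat
Sik2 probe 1: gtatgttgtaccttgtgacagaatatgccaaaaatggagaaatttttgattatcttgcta

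In male Tg islets against male WT islets, 1 of 16 measured probes was at least 2-fold higher, the one for Sik1, and 1 was at least 2-fold lower, Crtc2 probe 1. Of all 26222 probes measured in that comparison, 13.3% were higher by 2-fold or more and 8.67% lower, so these counts lie near the background. The other 14 lay between the thresholds, but 15 of the 16 differences were below 0. Their median was −0.45, with a range of −1.16 to 1.19, against a median of −0.16 over all measured probes, and 13 of the 16 lay below that all-probe median. Scaling each array on the probes detected everywhere moved the all-probe median to 0.02 and the family median to −0.26, with 13 of 16 probes still below the all-probe median, but Creb1 probe 2 (0.12) and Crtc3 probe 1 (0.16) then lay above 0. The split of all probes past 2-fold also moved with the scaling, to 15.8% higher and 5.60% lower under that choice and to 9.87% higher and 19.5% lower with each array centred on its median.

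Male Tg E2 islets and female Tg islets were each set against the same male Tg array, so these comparisons share that array with each other and with the one above. With estradiol, none of 16 measured family probes was past 2-fold in either direction, against 2.67% higher and 6.91% lower of all 26367 probes. The family differences ran from −0.58 to 0.62 with a median of 0.27, beside 0.08 over all probes. Of the 16, 12 were above 0 and 11 above that all-probe median. In female Tg against male Tg islets, again none of 16 was past 2-fold, against 4.66% higher and 7.75% lower of 25459 probes. The family differences ran from −0.24 to 0.82 with a median of 0.34, beside 0.10 over all probes. Here 14 were above 0 and 13 above the all-probe median. Of all probes past 2-fold, 27.9% were higher with estradiol and 37.5% in the female Tg array. With median scaling these shares became 43.3% and 53.3%, and with normexp background correction followed by quantile normalization the female share became 26.3%.

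**Figure D1:**
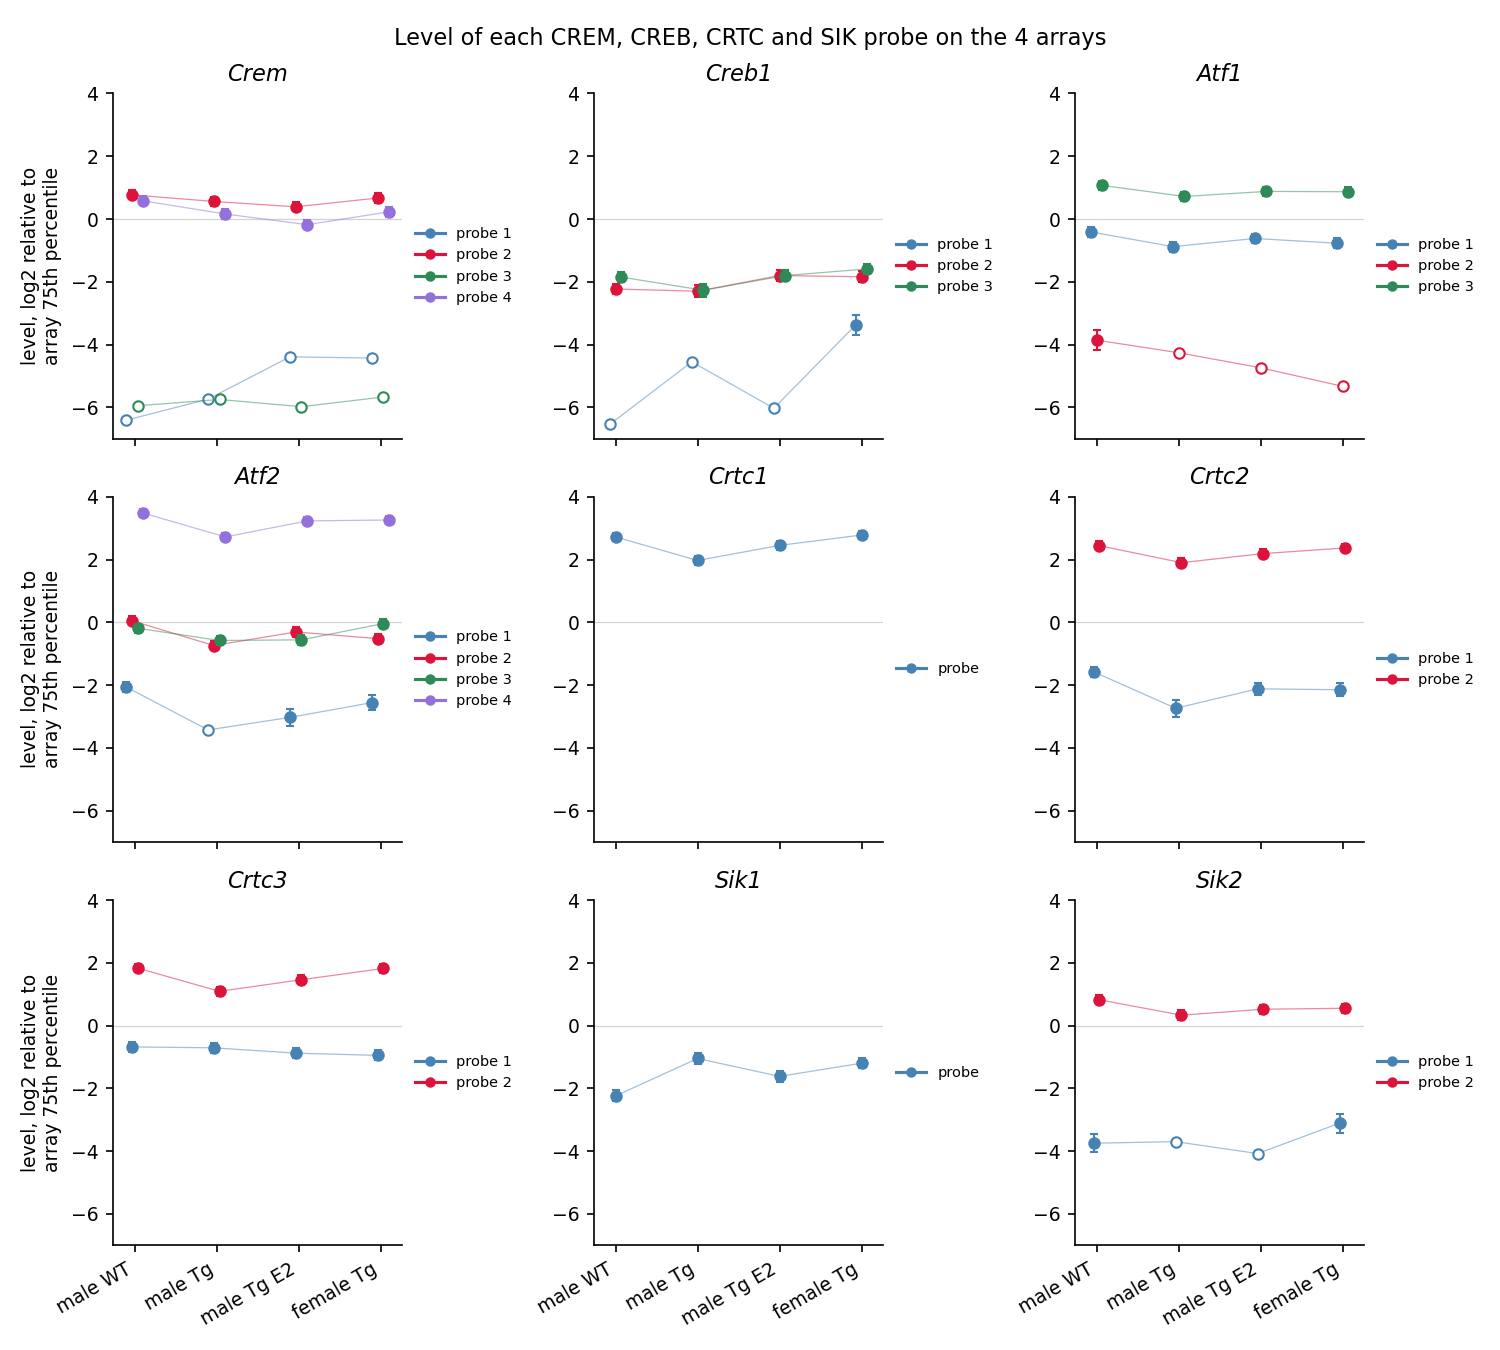
Level of each of the 22 probes on the 4 arrays, in log2 units relative to the array's 75th percentile, with 1 panel per gene. Filled points are spots well above background with the scanner error model's SE, open points are spots that were not, and lines only join the points of a probe. Crtc1, Crtc2 probe 2, Crtc3 probe 2 and Atf2 probe 4 are lowest on the male Tg array, whereas Sik1 is lowest on the male WT array at −2.24.

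Crem encodes both activators and repressors of CRE-driven genes. Probe 2 stood at 0.77 on the male WT array, 0.56 on the male Tg array, 0.39 on the male Tg E2 array and 0.67 on the female Tg array. Those 4 levels lie within 0.38 of each other, and no step between them exceeds 2 SE. Probe 4 stood at 0.58, 0.16, −0.18 and 0.23 in the same order, highest in male WT and lowest in male Tg E2. Its male Tg E2 level was 0.77 below male WT (SE 0.21, 1.70-fold lower), and its male Tg level 0.42 below (SE 0.21). Crem is the member whose pair of measured probes both read lower with estradiol than on the male Tg array, at −0.17 and −0.34 (SE 0.21 each), and both differences lie within 2 SE of 0.

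The measured Crem probes cannot tell its products apart. Probes 2 and 4 are placed on the same transcript and lie 622 bases apart both on it and on the genome, with no intron between them. Which other Crem transcripts each of them reads was not determined. ICER is listed by RefSeq as a synonym of Crem and has no probe of its own name here. Crem probes 1 and 3, which lie elsewhere in the gene, were not well above background on any array, so no level is read from them.

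Creb1, the founding member of the family, lay below the 75th percentile on every array. Probe 2 stood at −2.23 in male WT, −2.30 in male Tg, −1.80 in male Tg E2 and −1.84 in female Tg. Probe 3, which lies 6428 bases farther along the transcript, stood at −1.85, −2.27, −1.80 and −1.59. Both were lowest on the male Tg array, yet against male WT their differences, −0.07 (SE 0.25) and −0.42 (SE 0.26), did not reach 2 SE. Probe 2 was 0.51 higher with estradiol (SE 0.25) and probe 3 was 0.69 higher in female Tg (SE 0.27), 1.42-fold and 1.61-fold. The other probe fell short of 2 SE each time, probe 3 at 0.48 with estradiol (SE 0.27) and probe 2 at 0.46 in female Tg (SE 0.26). Creb1 probe 1, nearest the 5′ end, was well above background on the female Tg array only, at −3.37. That spot was at least 1.86-fold brighter than male WT and at least 1.13-fold brighter than male Tg, bounds that use the lowest level called well above background on the dimmer array. The difference between the spots themselves in the latter case was 1.19 (SE 0.69), within 2 SE.

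Atf1, which pairs with CREB and CREM, varied little. Probe 1 stood at −0.41 in male WT, −0.88 in male Tg, −0.62 in male Tg E2 and −0.77 in female Tg. Probe 3 stood at 1.07, 0.72, 0.88 and 0.87. Both were highest in male WT and lowest in male Tg, by 0.47 and 0.34 (SE 0.21 each), and only the first is past 2 SE. The files place probe 3 on chromosome X although its transcript is that of Atf1, whose other probes lie on chromosome 15, so what this spot measures is uncertain. Atf1 probe 2 cleared background in male WT alone, at −3.86.

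ATF2 also binds CRE-like sites but answers mainly to stress kinases. Probe 4, at the 3′ end, stood at 3.48 in male WT, 2.72 in male Tg, 3.23 in male Tg E2 and 3.26 in female Tg. The male Tg array was lowest, 0.76 below male WT (SE 0.20, 1.69-fold lower). Of the steps between neighbouring arrays, only that from male Tg up to male Tg E2, 0.51 (SE 0.20), exceeded 2 SE. Probe 2 stood at 0.05, −0.74, −0.31 and −0.52, and probe 3 at −0.19, −0.58, −0.56 and −0.04. Both were lowest on the male Tg array too, although for probe 3 the male Tg E2 level was only 0.02 above it and the female Tg level was the highest of the 4.

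The internal Atf2 probe 1, whose sequence is given above, stood at −2.06 in male WT, −3.03 in male Tg E2 and −2.56 in female Tg. On the male Tg array it was not well above background. Differences from that array take the spot's own level at face value and are not minima. On that basis it was 2.59-fold lower in male Tg than in male WT (−1.37 log2, SE 0.38, 95% interval −2.12 to −0.63). Female Tg read 1.83-fold higher than male Tg (0.87, SE 0.42, 95% interval 0.06 to 1.69). With estradiol the difference from male Tg was 0.40 (SE 0.43), within the error. Against male WT the male Tg E2 level was 0.97 lower (SE 0.30). The 3 Atf2 probes measured on all 4 arrays read lowest in male Tg, by 0.39 to 0.79 below male WT.

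**Figure D2:**
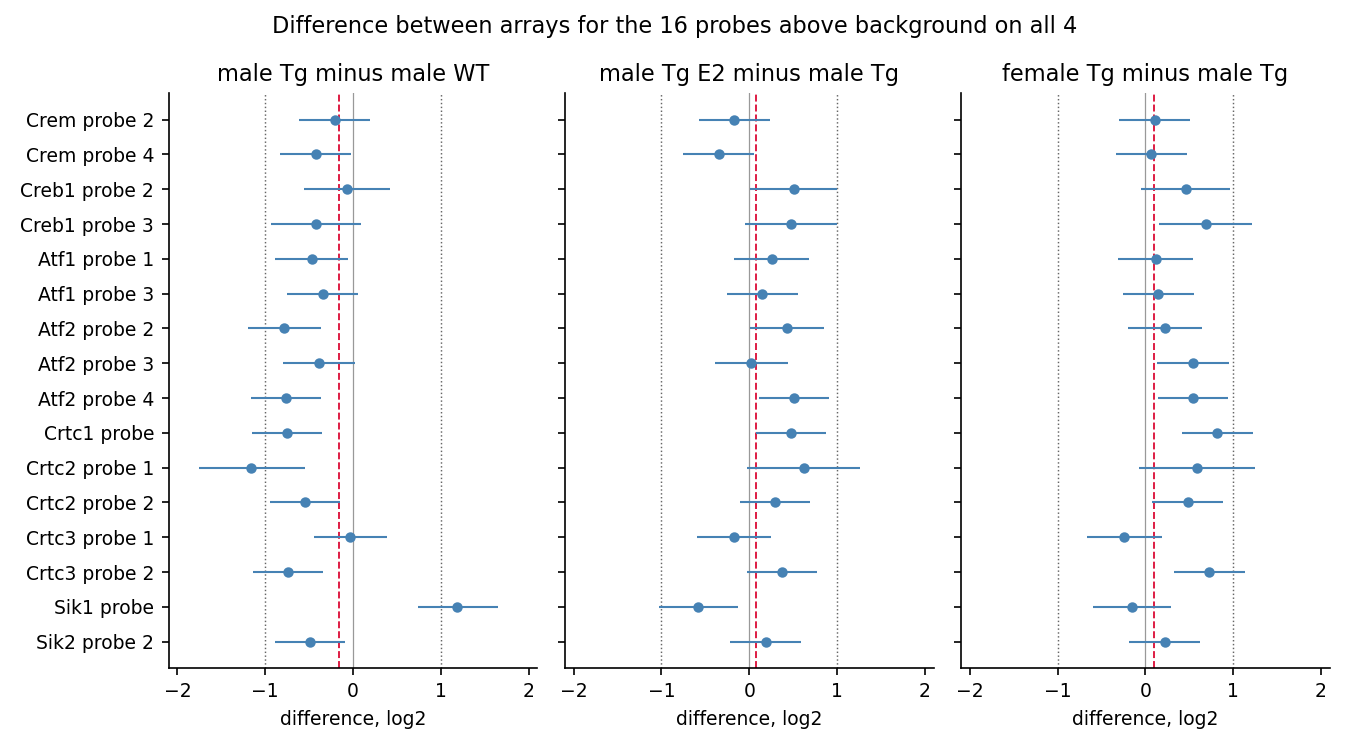
Log2 difference between arrays for the 16 probes well above background on all 4, in the 3 main comparisons, with bars of the 95% interval under the scanner error model. Dotted lines mark 2-fold and the dashed line the median of all measured probes (−0.16, 0.08 and 0.10). In male Tg minus male WT only the Sik1 probe lies to the right of 0, at 1.19.

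The CRTC coactivators, apart from 1 Crtc3 probe, had their low point on the male Tg array. Crtc1, the form best known from neurons, had 1 probe. It stood at 2.72 in male WT, 1.97 in male Tg, 2.45 in male Tg E2 and 2.78 in female Tg. Male Tg lay 0.75 below male WT (SE 0.20, 1.69-fold lower), and male Tg E2 lay 0.48 above male Tg (SE 0.20). Female Tg lay 0.82 above male Tg (SE 0.20, 1.76-fold), the largest among the 16 family probes measured on both arrays, and 0.06 above male WT (SE 0.20), which is within the error. Before scaling, the 4 processed intensities were 2405, 791, 1633 and 1800.

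Crtc2, the coactivator most studied in liver and beta cells, had a probe near the 3′ end and the internal probe printed above. The 3′ probe, Crtc2 probe 2, stood at 2.44 in male WT, 1.90 in male Tg, 2.19 in male Tg E2 and 2.37 in female Tg. Its male Tg level was 0.55 below male WT (SE 0.20), and its female Tg level 0.48 above male Tg (SE 0.20). The internal probe 1 stood at −1.58, −2.74, −2.12 and −2.15. Here male Tg was 1.16 below male WT (SE 0.31, 2.23-fold lower), and male Tg E2 (0.54 below, SE 0.25) and female Tg (0.56 below, SE 0.26) lay between. Relative to the all-probe median the male Tg difference is −0.99, and it was −0.97 with scaling on detected probes and −0.68 with normexp and quantile normalization, so the 2-fold call depends on the scaling. Both Crtc2 probes put male WT first and male Tg last, and their male Tg differences do not part by more than 2 SE.

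Crtc3 is the member whose probes part. Probe 2, at the 3′ end, stood at 1.83 in male WT, 1.09 in male Tg, 1.46 in male Tg E2 and 1.82 in female Tg. Probe 1, which lies 1641 bases upstream on both transcript and genome, stood at −0.68, −0.71, −0.88 and −0.95. For probe 2 male Tg was 0.74 below male WT (SE 0.20) and female Tg 0.72 above male Tg (SE 0.20), with female Tg at the male WT level to within 0.01. For probe 1 the same differences were −0.03 (SE 0.21) and −0.24 (SE 0.22). The gap between the probes was 0.71 (SE 0.29) in the first comparison and 0.96 (SE 0.30) in the other. Of 8 probe pairs over 6 genes with several measured probes, Crtc3 was the only pair past 2 SE in either comparison, and no pair was past it with estradiol. Whether Crtc3 RNA as a whole was lower in male Tg islets cannot be told from these probes.

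The SIK kinases phosphorylate the CRTC proteins. The probe for Sik1 stood at −2.24 in male WT, −1.05 in male Tg, −1.62 in male Tg E2 and −1.20 in female Tg. The male WT array is lowest and every Tg array lies above it by more than 2 SE, by 1.19 (SE 0.23, 2.29-fold) in male Tg, 0.62 (SE 0.24, 1.53-fold) in male Tg E2 and 1.04 (SE 0.23, 2.06-fold) in female Tg. In female Tg against male WT it was the only 1 of 18 measured family probes past 2-fold, beside 6.84% of all 26074 probes higher and 3.82% lower. With estradiol Sik1 lay 0.58 below male Tg (SE 0.23, 1.49-fold lower), while female Tg lay 0.15 below it (SE 0.23), within the error. In male Tg E2 against male WT none of 17 measured family probes was past 2-fold, beside 6.99% higher and 2.95% lower of 27056 probes.

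The Sik1 value also depends on the scaling. Its processed intensities were 77.3, 98.0, 97.0 and 114 before scaling, a dim spot, and the 75th percentiles that were subtracted correspond to intensities of 365, 202, 299 and 261. The male Tg difference stayed above 0 under all 6 scalings, from 0.62 with normexp and quantile normalization together to 1.38 with scaling on detected probes, and was 1.36 relative to the all-probe median. It fell short of 2-fold in that first setting and with median scaling. Sik2 probe 2 stood at 0.82, 0.33, 0.52 and 0.55, with male Tg 0.49 below male WT (SE 0.21), while its male Tg E2 and female Tg levels lay within 2 SE of male WT. The Sik2 probe across the intron was well above background in male WT (−3.75) and female Tg (−3.11) only, a difference of 0.64 (SE 0.41) that is within 2 SE.

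**Figure D3:**
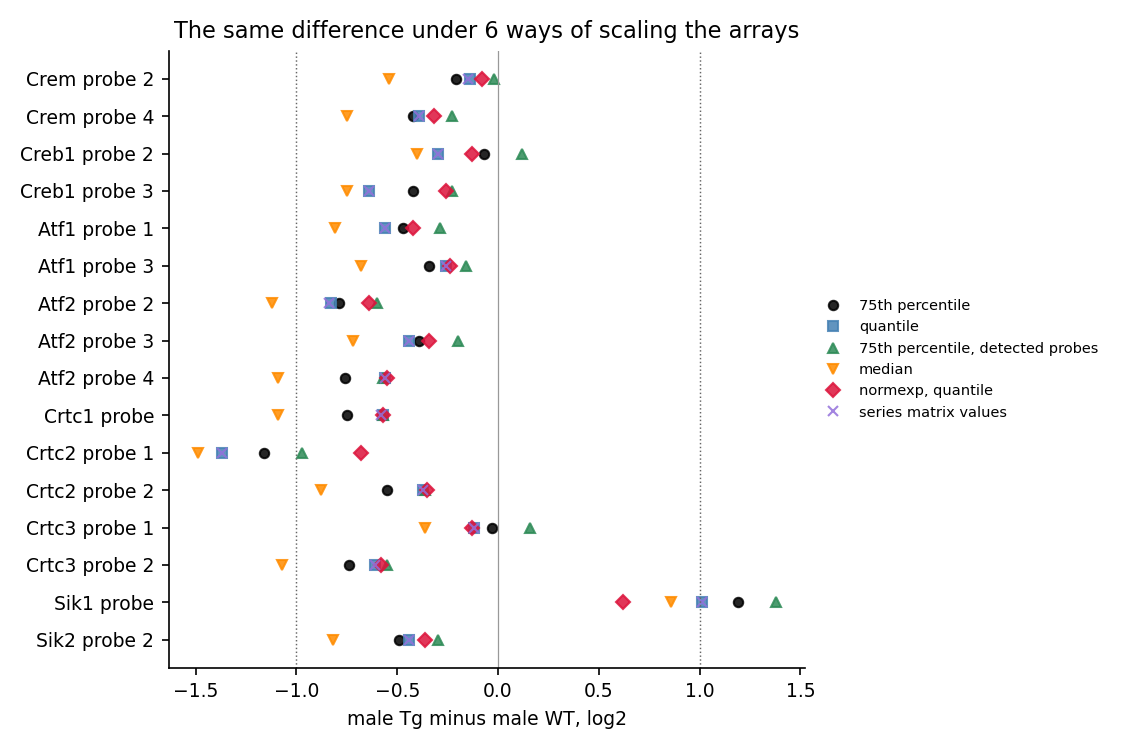
Log2 difference of male Tg minus male WT for the 16 measured probes under 6 ways of scaling the arrays, 1 marker per scaling, with dotted lines at 2-fold. Sik1 keeps its side of 0 throughout, from 0.62 to 1.38, and Creb1 probe 2 and Crtc3 probe 1 cross 0 under scaling on the detected probes.

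Across the 16 probes measured on every array, male WT was the highest array for 11 and male Tg the lowest for 12. These probes belong to 9 genes. The same order was not counted over all probes, so the counts are not read as particular to the family. The all-probe medians lean the same way. They were −0.16 for male Tg minus male WT, 0.08 for male Tg E2 minus male Tg and 0.10 for female Tg minus male Tg. From the highest to the lowest array the difference exceeded 2 SE for 13 of the 16 probes. Between neighbouring arrays 4 of the 48 steps did. The arrays were ordered by these same levels, which widens the first kind of difference and narrows the steps. The counts are therefore not set against each other. For most members these steps do not resolve the place of male Tg E2 and female Tg, though some differences from male Tg given above exceed 2 SE. Of the neighbouring steps that were resolved, Atf2 probe 4 and Crtc1 set male Tg below male Tg E2, Crtc2 probe 1 set male Tg E2 below male WT, and Sik1 set male WT below male Tg E2.

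Among the 13888 genes well above background on all 4 arrays, those whose centred profile lay near that of Sik1 included Slc12a4, a potassium and chloride cotransporter, and the DNA-binding protein Arid5a. Their root mean square distances over the 4 arrays were 0.0158 and 0.0274 log2. In total, 35 genes lay within 0.1. The SE of the Sik1 level was 0.16 or 0.17 log2 on each array, larger than 0.1, so the order of these genes is not resolved.

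Promoters of the members were searched for the CRE because CREB family genes can answer to their own pathway. RefSeq promoter windows of build GRCm38.p6, which run from 250 bases before to 50 bases after a gene's start, were matched by symbol for 6 members. The remaining members were not searched, and a window at the gene start does not reach the internal Crem promoter of ICER. The full palindrome TGACGTCA was in none of the 6, against 588 of all 32851 windows (1.79%). At that share none of 6 is the likely outcome, so nothing about the members is read from it. The shorter site, TGACG on either strand, which the palindrome also holds, was in 2 of the 6 (Atf1 and Sik2), against 20.8% of all windows. The Atf1 site starts 90 bases before the gene start and is shown, with the site in capitals, as an example of such a site. The stretch lies at chr15:100227741-100227801 on the plus strand.
Atf1 promoter: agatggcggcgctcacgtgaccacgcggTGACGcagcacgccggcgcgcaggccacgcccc

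The pathway around the family was described with 4 gene lists, each gene taken at its probe of highest mean level. In male Tg against male WT, 15.6% of all 14382 measured genes read at least 2-fold higher and 8.68% lower, with a median of −0.21. Of 24 measured genes that raise, carry or end the cAMP signal, 4 were higher and 5 lower, with a median of −0.39. The incretin receptor genes were among the lower ones. Gipr stood at 3.57 in male WT, 0.98 in male Tg, 2.03 in male Tg E2 and 2.92 in female Tg, and was 2.59 lower in male Tg than in male WT (SE 0.20). Glp1r stood at 1.04, −1.31, −0.55 and 0.45, and was 2.35 lower (SE 0.21). Both are receptors through which gut hormones raise cAMP in beta cells, and both were lowest on the male Tg array. Adcy7, an adenylyl cyclase abundant in blood cells, ran the other way, at −1.85, 0.71, −0.23 and 0.61 (2.56 higher, SE 0.21).

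Of 23 measured CREB regulators and coactivators, 3 were higher and 1 was lower in male Tg than in male WT, with a median of −0.22. Rps6ka1, a growth factor-activated kinase, was 2.24 higher (SE 0.20) and the calcium-dependent kinase Camk4 1.58 higher (SE 0.32). Hdac5, a class IIa histone deacetylase that SIK kinases also phosphorylate, was 1.75 lower (SE 0.20). Sik3, the remaining SIK, was 0.68 lower (SE 0.20), and the coactivator gene Crebbp 0.50 lower (SE 0.20). Among 24 related leucine zipper factors 4 were higher and 3 lower, with a median of −0.29. The stress-induced Atf3 was 1.99 higher (SE 0.20), Cebpa 1.92 higher (SE 0.26) and Cebpg 1.70 lower (SE 0.21).

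Genes known to answer to cAMP through CREB did not move as one. Of 24 measured, 4 were higher and 1 lower in male Tg than in male WT, and their median of −0.21 equals that of all genes. Areg, an epidermal growth factor receptor ligand, was 2.12 higher (SE 0.21), and the survival gene Bcl2 1.92 higher (SE 0.21). Rgs2, a brake on G protein signalling, was 1.48 lower (SE 0.20), standing at 7.80 in male WT, 6.32 in male Tg, 7.83 in male Tg E2 and 6.47 in female Tg. Rgs2 was thus level in male WT and male Tg E2 and low on both other arrays.

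With estradiol, 2.55% of all 14616 measured genes read at least 2-fold higher and 8.00% lower than in male Tg, with a median of 0.12. The cAMP signal genes had 3 of 26 higher and 0 lower, with a median of 0.25. The 3 were the cyclases Adcy1 (1.47, SE 0.26) and Adcy2 (1.25, SE 0.36) and the receptor gene Gipr (1.06, SE 0.20). Regulators had 1 of 23 higher (Hdac5, 1.12) and 2 lower (Rps6ka1, −1.40, and Camk4, −1.12). Related factors had 1 of 24 higher, the acute phase regulator Cebpd (1.44), and 2 lower, the liver-enriched membrane-bound factor Creb3l3 (−1.46) and Atf3 (−1.16). Targets had 1 of 24 higher, Rgs2, whose levels are given above, and 2 lower, Areg (−2.22) and the mitochondrial coactivator Ppargc1a (−1.48).

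In female Tg against male Tg, 3.51% of all 14207 measured genes were higher and 8.57% lower, with a median of 0.10. The cAMP signal genes had 3 of 25 higher and 1 lower, with a median of 0.35. They included Gipr (1.95, SE 0.20) and Glp1r (1.76, SE 0.21), while Gcgr, the glucagon receptor, was the lower one (−1.17). Regulators had 0 of 23 higher and 1 lower, Rps6ka1 (−1.49). Related factors had 0 of 24 higher and 3 lower, Creb3l3 (−2.90), Atf3 (−2.55) and Cebpa (−1.52). Targets had 0 of 24 higher and 3 lower, Areg (−3.30), Ppargc1a (−2.62) and Pck1 (−1.54), the enzyme of gluconeogenesis.

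Against male WT, the cAMP response targets read low on the female Tg array. Of 24 measured, 6 were at least 2-fold lower and 1 was higher, with a median of −0.55, beside 3.47% lower and 7.63% higher of all 14215 genes and a median of −0.12. The 6 were Pck1 (−1.43), Ppargc1a (−1.42), Rgs2 (−1.33), Fosb (−1.22), Gem (−1.19) and Areg (−1.18), and Bcl2 (1.39) was the higher one. Fosb, an immediate early factor, stood at 4.98 in male WT, 4.44 in male Tg, 4.29 in male Tg E2 and 3.76 in female Tg. Gem, a small GTPase that restrains calcium channels, stood at 1.24, 0.59, 0.98 and 0.04. Ppargc1a instead was highest on the male Tg array, at 0.06, 1.26, −0.22 and −1.36. Genes of this comparison were picked after their values were seen. Sex and genotype both differ between these arrays and cannot be told apart here.

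**Figure D4:**
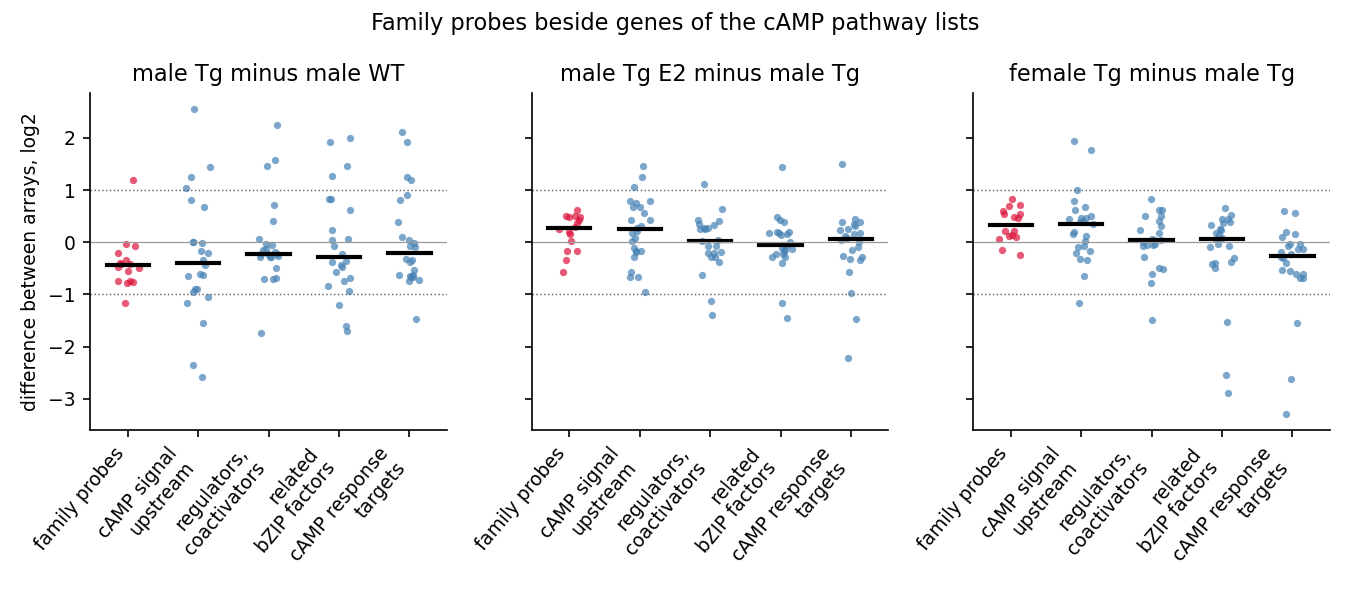
Log2 difference between arrays for the 16 family probes (red) and for the measured genes of the 4 pathway lists (blue), each point 1 probe or gene and each bar a median, with dotted lines at 2-fold. The family probes keep within −1.16 and 1.19 in every panel, while genes of the lists reach −3.30 and 2.56.

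The make-up of the RNA differed between the arrays beside these results. The mean level of 14 beta cell markers, all well above background on every array, was 5.76 in male WT, 4.18 in male Tg, 4.94 in male Tg E2 and 5.10 in female Tg, and 9 of the 14 were at least 2-fold lower in male Tg than in male WT. The hormone genes of that list went the other way by less than 2-fold. Ins1 was 0.67, Ins2 0.73 and Iapp 0.29 higher in male Tg (SE 0.20 each). Fewer cells of a type and less RNA per cell cannot be told apart in such bulk samples. The 15 acinar markers on the array averaged 4.38, 8.62, 7.76 and 4.61, and all of them were well above background on every array. The 12 matrix and stellate cell markers averaged 0.44, 3.52, 3.33 and 2.23, and the 12 lymphocyte markers −0.23, 2.49, 0.77 and 2.32. In male Tg against male WT, 14 of 15 acinar, 10 of 10 measured matrix, 10 of 12 lymphocyte, 7 of 12 macrophage, 6 of 6 measured erythrocyte, 5 of 7 alpha cell, 4 of 5 delta cell, 3 of 6 measured ductal and 3 of 10 endothelial markers were at least 2-fold higher. With estradiol, 4 of 14 beta cell markers were at least 2-fold higher than in male Tg, and 9 of 11 measured lymphocyte and 6 of 6 measured erythrocyte markers were lower. In female Tg, 6 of 14 beta cell markers were higher than in male Tg, and 14 of 15 acinar, 8 of 12 matrix and 6 of 6 measured erythrocyte markers were lower. Ins1 (−0.55), Ins2 (−0.64) and Iapp (−0.43) again went against most beta cell markers there, by less than 2-fold. Sst counts both as a delta cell marker and as a cAMP target. The part of these cells in the family's differences was not tested.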

How the data were processed

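Total RNA of islets was labelled with Cy3 and hybridised to 4 Agilent arrays on 1 slide with 1 scan time, 1 array per group. The values used are the deposited scanner files' processed intensity, which is linear and, per the file headers, background-corrected. The headers give software version 10.7.1.1 and build mm9; the submitters' processing notes name Agilent Feature Extraction 9.5.1.1. The authors' deposited series matrix, used as an alternative, holds a linear signal: its 4 columns share the same sorted values to within 0.1%, so they were quantile normalized.

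Spots with an outlier flag (103 to 125 an array) were left out and log2 taken of each spot. The log2 values of a probe's spots were then averaged and the 75th percentile over 55681 non-control probes subtracted. Spots well above background were 49.9% to 54.8% of each array. Gene names came from the RefSeq table of GRCm38.p6 (27235 probes by accession, 565 by synonym, 27881 with the file's name). A call is a difference of at least 2-fold with both spots well above background. A bound ("at least") uses, on the dimmer array, the lowest level called well above background. Where the spot's own level was higher than that, the difference between the spots is given without a bound. The normexp setting used limma 3.58.1 with an offset of 50 and was followed by quantile normalization. The scaling and difference steps were tested on simulated data, a copy of the male WT array with few added differences, evenly split up and down. This does not test the scaling where many probes differ unevenly, as between these arrays.

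The 9 members and all lists were chosen with earlier results of these data known. Named are every member probe, up to 3 genes past 2-fold per list and main comparison, taken by size, and the 3 nearest profiles of a member past 2-fold. Some genes of these rules are not reported here. Sik3 and Crebbp, and the genes of female Tg against male WT, were named after their values were seen. Alternatives were 5 other scalings, no background filter, and thresholds of 1.5-fold and 4-fold.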

Additional observations from a re-analysis of the deposited data

How the results depend on the processing

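No paired analysis was possible because each group has 1 array. Of 415 member probe values recomputed under 5 other scalings, 413 stayed within the 95% error interval of the reported one and none past 2-fold turned its sign. The other 2 were Sik1 with normexp and quantile normalization together (normexp below), at 0.62 for male Tg and 0.53 for female Tg against male WT. Median scaling and scaling on detected probes move every probe of a comparison by the same amount. That amount is smaller than the error interval on either side, so these settings could not take a value out of it. Of 72 pathway list medians 68 stayed within 1 median SE; with median scaling those of male Tg against male WT became −0.73, −0.55, −0.62 and −0.54, as all probes moved to −0.50.

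In male Tg against male WT the family counts, 1 higher and 1 lower, became 0 lower with scaling on detected probes, 0 higher and 5 lower with median scaling, 0 and 0 with normexp, 2 and 2 without the background filter, 5 lower at 1.5-fold, and 0 and 0 at 4-fold. The share of all probes past the threshold, 22.0%, became 12.7% with normexp, 44.3% at 1.5-fold and 6.66% at 4-fold. By direction, 17.3% of all probes were higher and 8.34% lower without the filter. At 1.5-fold these were 20.6% and 23.7%, and with median scaling 9.87% and 19.5%. With estradiol the counts of 0 became 1 higher and 1 lower without the filter and 1 higher at 1.5-fold, and the share, 9.59%, became 5.34% with normexp, 15.9% without the filter, 24.9% at 1.5-fold and 1.82% at 4-fold. Here 5.05% of all probes were higher and 10.8% lower without the filter, and 11.3% and 13.6% at 1.5-fold. In female Tg against male Tg the counts of 0 became 2 higher and 1 lower without the filter and 4 higher at 1.5-fold, and the share, 12.4%, became 6.99% with normexp, 31.4% at 1.5-fold and 2.82% at 4-fold. In this comparison 6.92% of all probes were higher and 11.2% lower without the filter, and 16.5% and 14.9% at 1.5-fold. Without the filter the calls include spots not above background. Sik1 and Creb1 spots were dim, and with 1 array per group the spread between mice is unknown.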
